A study of Mus musculus with 4 samples.

Results

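The TNF superfamily of signalling proteins was examined in mouse embryonic fibroblasts (MEFs), as every probe set whose annotated gene symbol named Tnf, Fas, Fasl, a Tnfsf ligand, a Tnfrsf receptor or a Traf adaptor. The choice was made by symbol alone and gave 61 of 45037 probe sets, which stand for 35 of 18193 genes: 9 ligands, 20 receptors and 6 TRAFs. Expression was measured on 4 Affymetrix arrays, 1 for each group: p65-/-Ras tumour cells, p65-/-Ras pre-injection cells, p65+/+Ras tumour cells and p65+/+Ras pre-injection cells. All MEFs had been infected with the retrovirus pBabe-HRASG12V-Hygro, so the p65+/+ cells carry activated HRAS as well, and the p65-/- cells lack the p65 (Rela) subunit of the transcription factor NF-kB. Tumour cells came from tumours that these lines formed in SCID mice, which lack mature lymphocytes but keep other host cells, and they were returned to culture after collagenase treatment and kept under hygromycin for 2 weeks. The number of embryos, cell clones, mice and tumours behind an array was not stated in the labels, and genotype and cell line cannot be told apart.

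Ligands of the TNF superfamily are membrane-bound or shed trimers that cluster their receptors. Receptors with a death domain recruit the adaptors FADD and TRADD and can start apoptosis, while most others bind TRAF proteins, which pass the signal to IKK, NF-kB and the JNK and p38 kinases. NF-kB in turn drives transcription of several ligands, receptors and TRAFs, among them Tnf itself. Fibroblasts are known to respond to TNF through Tnfrsf1a, and the RANK ligand Tnfsf11 of stromal cells supports osteoclast formation.

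Since each group holds a single array, nothing could be tested, and every fold is between 2 arrays. Each array enters both a genotype and a tumour comparison, so these are not independent. Values are linear signal intensities as deposited. The floor of an array was its median signal, 92.7 and 87.8 for p65-/- tumour and pre-injection cells and 92.5 and 93.4 for p65+/+ tumour and pre-injection cells. Comparisons were limited to genes at or over the floor on 1 or both arrays. A value under the floor was raised to it, which makes the fold a bound ("at least"), except for signals close to the floors. Since the floors differ by array, the sign can turn there. Tnfsf14 had 89.9 in p65-/- and 72 in p65+/+ pre-injection cells, but -0.05 in log2 after the floor. Its p65-/- tumour change, 71.9 against 89.9, became 0.04. Genes were counted as higher or lower at 2-fold or more. In a bulk sample, fewer cells of a type and less RNA per cell cannot be told apart.

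Rela, the deleted gene, gave 214 in p65-/- and 1479 in p65+/+ pre-injection cells, and 209 and 1457 in p65-/- and p65+/+ tumour cells; where its probe set lies relative to the deletion was not known. The p65-/- pre-injection array stood apart from the others: 11153 of its probe sets reached a signal of 200, against 13015 to 13419 on the other 3 arrays, and its log2 signals correlated with those of the others at 0.804 to 0.866 over 10046 genes, compared with 0.929 to 0.976 among the other 3. Genes are not independent replicates, and the coefficients only describe the arrays. For the genotype comparison before injection, counts and named values are therefore also given with the p65-/- tumour array substituted for it, which changes the state of the cells as well. For single genes and partner genes that alternative was chosen after the data were seen. The tumour change of p65-/- cells has no such check within the genotype, since no other array holds p65-/- pre-injection cells. Substituting the p65+/+ pre-injection array there changes the genotype, and it gives the same pair of arrays as the first substitution. Of 10 fibroblast markers, 8 reached the floor on each p65-/- array and 10 on each p65+/+ array, with the proteoglycan genes Dcn and Lum under the floor in p65-/- cells. Counted at 2-fold, 0 of the 10 were higher and 3 lower in p65-/- cells before injection, beside 2.11% and 18.1% of all genes. In tumour cells 2 were higher, Col1a1 and Fn1, and 5 lower, beside 2.74% and 5.62% of all genes. Of 8 macrophage markers, 5 lay under the floor on all 4 arrays, including the defining markers Ptprc and Adgre1. Their summed signal was 1030 and 979 in p65-/- tumour and pre-injection cells and 1357 and 1299 in p65+/+ tumour and pre-injection cells. The myeloid adaptor gene Tyrobp had 278 on the p65-/- tumour array and 55.2 to 63.7 on the other arrays. Cd14, in the same list, had the opposite order, at 220 in p65-/- against 809 in p65+/+ tumour cells, and at 330 against 743 before injection. Csf1r had 198 to 243 on the 4 arrays. Under the floor on all 4 arrays were 4 of 5 endothelial, 4 of 5 lymphocyte and 2 of 5 epithelial markers. Summed signals over p65-/- and then p65+/+ arrays were 296 to 322 and 274 to 295 for endothelial, 797 to 920 and 652 to 681 for lymphocyte, and 345 to 415 and 301 to 321 for epithelial markers. For fibroblast markers they were 34145 to 40067 and 41598 to 44426. The part of any such cells in the results below was not tested.

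By the probe set used for each of the 35 genes, 14 reached the floor on all 4 arrays, 11 on 1 to 3 arrays and 10 on none. Those on none were the ligand genes Fasl, Tnfsf4, Tnfsf10 and Tnfsf13b, the receptor genes Tnfrsf8, Tnfrsf13b, Tnfrsf13c, Tnfrsf18 and Tnfrsf25, and the adaptor gene Traf1. Several of them are best known from lymphocytes. In p65-/- against p65+/+ pre-injection cells, 24 genes were compared: 1 was higher, Tnfsf9, and 1 was lower, Tnfsf11. Over all 12597 genes compared, 2.11% were higher and 18.1% lower, a split that depends on scaling: quantile normalization gave 7.12% and 12.4%, and with it the median over all genes was 0.24 in log2. In p65-/- against p65+/+ tumour cells, 21 genes were compared, with Tnfsf9 higher and Tnfrsf9 lower. The shares over all 11988 genes compared were 2.74% higher and 5.62% lower. The median log2 difference of the family was -0.02 before injection and -0.08 in tumour cells, beside -0.02 and 0.01 over all genes compared. Counted by probe set, 1 of 36 compared was higher and 2 lower before injection (1.62% and 18% of all probe sets), and 2 of 32 were higher and 2 lower in tumour cells (2.46% and 5.49%).

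**Figure D1:**
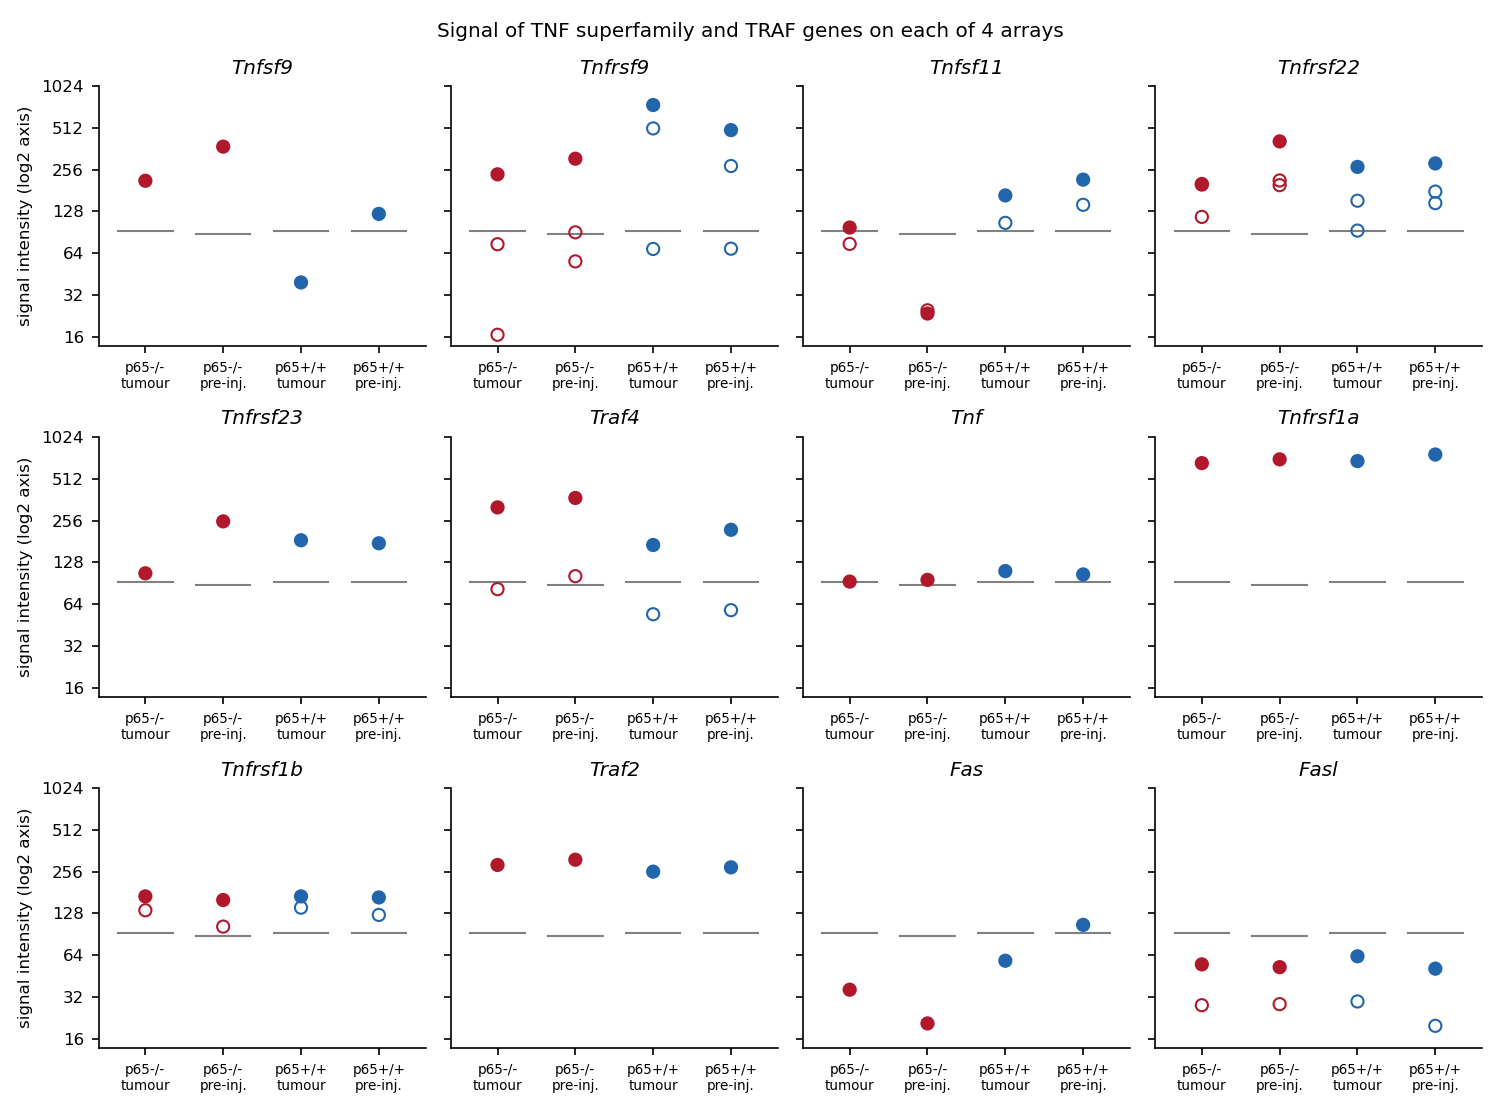
Signal intensity (log2 axis) of 12 genes on the 4 arrays, p65-/- in red and p65+/+ in blue. Each point is 1 probe set, filled where it gives the value of the gene, and the grey line is the floor of that array. Tnfsf9 has 213 and 375 in p65-/- cells against 39.5 and 123 in p65+/+ cells, Tnfrsf9 has the opposite order, and Tnfrsf1a, Tnfrsf1b and Traf2 are nearly level.

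Tnfsf9 encodes the ligand 4-1BBL, which costimulates T cells through its receptor 4-1BB. The gene lies at chr17:57105287-57107758 (GRCm38) and has 1 probe set. Its signal was 375 in p65-/- and 123 in p65+/+ pre-injection cells, a 3.05-fold higher level in p65-/- cells. In tumour cells it was 213 in p65-/- and 39.5 in p65+/+ cells, at least 2.30-fold higher. Both p65-/- arrays thus had a higher signal than both p65+/+ arrays. Within each genotype the tumour cells had less than the pre-injection cells, 1.77-fold less in p65-/- cells and at least 1.33-fold less in p65+/+ cells. Tnfsf9 was no longer counted before injection when the floor was raised to the 70th percentile (log2 difference 0.92) or when the p65-/- tumour array stood in for the p65-/- pre-injection array (0.79), nor in tumour cells with the higher floor (0.12). The authors' deposited table left Tnfsf9 out in tumour cells, since both arrays had to reach the floor there.

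The receptor gene of that ligand, Tnfrsf9, is a known NF-kB-induced gene in activated T cells and lies at chr4:150920155-150946104. Its brightest probe set had 237 in p65-/- and 747 in p65+/+ tumour cells, 3.15-fold lower in p65-/- cells. Before injection it had 307 in p65-/- and 493 in p65+/+ cells, a 1.61-fold lower level that did not reach 2-fold. A second probe set had 16.6 in p65-/- and 507 in p65+/+ tumour cells, at least 5.47-fold lower, and 56 in p65-/- and 272 in p65+/+ pre-injection cells, at least 3.10-fold lower. Those 2 probe sets have the same order, with both p65-/- arrays under both p65+/+ arrays. The third lay at 74.4 and 90.6 in p65-/- tumour and pre-injection cells and at 68.8 and 69.1 in p65+/+ tumour and pre-injection cells, near or under the floor. The ligand and its receptor thus differed in opposite directions, Tnfsf9 higher and Tnfrsf9 lower in p65-/- cells in both states. Before injection the size for Tnfrsf9 depends on scaling. Its log2 difference was -0.68 on the deposited scale, -0.20 after quantile normalization and -0.31 after scaling to the 75th percentile. Substituting the p65-/- tumour array gave -1.05. The 2-fold difference of Tnfrsf9 in tumour cells was kept under all 9 alternatives of processing that were tried, and the log2 difference was -1.47 to -1.68 wherever it was recomputed from the signals. All 9 use the same 2 arrays and cannot stand for replicates. The higher floor and the brightest probe set of any suffix left the value at -1.66, that of the main processing. The authors' deposited table of array quotients holds -2.62 for it. The conversion made here, given with the processing, turns that into -12.78.

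Tnfsf11, the gene of RANK ligand, lies at chr14:78277446-78308043. Its brightest probe set had 23.6 in p65-/- and 217 in p65+/+ pre-injection cells, at least 2.47-fold lower in p65-/- cells. In tumour cells it had 98.1 in p65-/- and 167 in p65+/+ cells, 1.70-fold lower. The second probe set had 24.9 in p65-/- and 143 in p65+/+ pre-injection cells, and 74.8 and 106 in p65-/- and p65+/+ tumour cells. All 4 of these pairs were lower in p65-/- cells, and the second probe set, at least 1.63-fold and 1.14-fold lower, stayed within 2-fold. The count of Tnfsf11 before injection was lost with scaling to the 75th percentile (log2 difference -0.94) and with the floor at the 70th percentile (-0.43). It was not compared in the authors' deposited table, where both arrays had to reach the floor. Substituting the p65-/- tumour array gave -1.15.

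The other genes of the RANK system were dim, and they and Tnfrsf10b are given after their values were seen. Its receptor gene Tnfrsf11a (RANK) had 83.3 in p65-/- and 112 in p65+/+ pre-injection cells, and 91.9 and 123 in p65-/- and p65+/+ tumour cells. Only the p65+/+ arrays reached the floor, and the differences were at least 1.28-fold and at least 1.32-fold. Tnfrsf11b, the gene of the soluble decoy receptor osteoprotegerin, had 56.7 in p65-/- and 102 in p65+/+ pre-injection cells, and 98.9 and 52.1 in p65-/- and p65+/+ tumour cells. Its second probe set had 2.96 in p65-/- and 140 in p65+/+ pre-injection cells, and 90.8 and 17.7 in p65-/- and p65+/+ tumour cells. In both probe sets the p65+/+ pre-injection and p65-/- tumour arrays were the higher ones. All its folds are bounds, at least 1.59-fold lower for the second probe set in p65-/- pre-injection cells, so their true size was not measured.

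The promoters of Tnfrsf9 and Tnfsf11 are shown because these genes were the ones counted as lower in p65-/- cells, a choice made after their values were seen. They are windows of 250 bases before to 50 bases after an annotated start, from RefSeq, build GRCm38.p6, at chr4:150919905-150920204 and chr4:150927749-150928048 on the plus strand for the 2 Tnfrsf9 starts and chr14:78307994-78308293 on the minus strand for Tnfsf11. Capitals mark matches to the kB consensus, which was searched on both strands.
Tnfrsf9, upstream start: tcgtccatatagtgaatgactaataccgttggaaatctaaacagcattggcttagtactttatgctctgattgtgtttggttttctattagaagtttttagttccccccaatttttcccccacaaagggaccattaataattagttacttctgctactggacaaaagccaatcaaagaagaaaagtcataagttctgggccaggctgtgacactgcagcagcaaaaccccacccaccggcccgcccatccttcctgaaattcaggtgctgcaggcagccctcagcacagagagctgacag
Tnfrsf9, downstream start: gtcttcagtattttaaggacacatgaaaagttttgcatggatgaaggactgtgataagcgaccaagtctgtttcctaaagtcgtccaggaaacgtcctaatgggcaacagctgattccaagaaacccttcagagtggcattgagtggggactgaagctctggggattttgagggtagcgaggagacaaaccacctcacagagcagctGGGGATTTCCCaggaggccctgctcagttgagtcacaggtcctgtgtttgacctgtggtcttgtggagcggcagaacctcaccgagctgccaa
Tnfsf11: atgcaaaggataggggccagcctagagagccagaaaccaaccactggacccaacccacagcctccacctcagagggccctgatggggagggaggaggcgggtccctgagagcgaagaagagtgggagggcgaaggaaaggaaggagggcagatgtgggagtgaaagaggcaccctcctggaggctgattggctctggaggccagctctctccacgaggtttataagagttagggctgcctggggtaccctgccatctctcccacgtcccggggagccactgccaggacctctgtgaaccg
At its downstream start Tnfrsf9 had 2 matches to the kB consensus that overlap and begin at positions -43 and -42, counted from the start. The upstream window and that of Tnfsf11 held none. RefSeq windows were found for 30 of the 35 genes, 34 windows in all, and not for Tnfrsf10b, Tnfrsf11b, Tnfrsf22, Tnfsf4 and Tnfsf9. The kB consensus was in a window of 2 genes, Tnfrsf9 and Tnfrsf8, beside 4.51% of all 32851 windows. A match is a stretch of letters and no measure of binding.

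By the deposited signals, Tnf, its receptors and Traf2 were within 2-fold between the genotypes. Tnf, the founding ligand, had 96.0 in p65-/- and 105 in p65+/+ pre-injection cells, and 93.3 and 111 in p65-/- and p65+/+ tumour cells. These values lie just above the floors, and the largest of its 4 differences was 1.19-fold. The authors' deposited table holds a quotient of 2.61 for Tnf before injection. Converted with the deposited signals it would stand for a log2 difference of 10.60, where these signals give -0.12. The quotient thus does not match these signals. Tnfrsf1a, the death-domain TNF receptor of most cells, had 707 in p65-/- and 766 in p65+/+ pre-injection cells, and 664 and 687 in p65-/- and p65+/+ tumour cells. Tnfrsf1b, the TNF receptor without a death domain, had 160 in p65-/- and 167 in p65+/+ pre-injection cells, and 170 in both genotypes of tumour cells. Traf2, the main adaptor of that receptor, had 312 in p65-/- and 275 in p65+/+ pre-injection cells, and 286 and 256 in p65-/- and p65+/+ tumour cells. In the 4 comparisons, on the deposited scale, the brightest probe sets of both receptors and Traf2 differed by 1.13-fold at most, while quantile normalization gave a log2 difference of 0.64 for Traf2 before injection. The direction before injection depends on scaling for 3 of these genes: with the 75th percentile of the arrays made equal, which moved the median of all genes to 0.35, the log2 difference was 0.25 for Tnf, 0.25 for Tnfrsf1a and 0.30 for Tnfrsf1b, where the deposited signals gave -0.12, -0.12 and -0.07.

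The death receptor gene Fas had 20.7 in p65-/- and 106 in p65+/+ pre-injection cells, and 36.2 and 58.5 in p65-/- and p65+/+ tumour cells. Only the p65+/+ pre-injection array reached its floor, so the fold was at least 1.21. Fasl, the gene of its ligand, had 52.6 in p65-/- and 51.3 in p65+/+ pre-injection cells, and 55.1 and 63.0 in p65-/- and p65+/+ tumour cells, all under the floor. Tnfrsf10b, the gene of the TRAIL receptor, had 96.7 in p65-/- against 87.9 in p65+/+ tumour cells, and before injection 76.7 in p65-/- against 65.5 in p65+/+ cells. Its second probe set had 111 in p65-/- against 101 in p65+/+ tumour cells, and before injection 84.6 in p65-/- against 77.4 in p65+/+ cells, so it reached the floor in tumour cells of both genotypes. The TRAIL gene Tnfsf10 reached it on no array.

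By their brightest probe sets, 14 of 14 receptors and 5 of 5 TRAFs compared before injection were not counted as 2-fold apart between genotypes. In tumour cells it was 11 of 12 receptors and 5 of 5 TRAFs. Over all genes compared, 2.11% were higher and 18.1% lower before injection, and 2.74% and 5.62% in tumour cells. The folds of Fas, Tnfrsf11a, Tnfrsf11b, Tnfrsf14 and Tnfrsf19 before injection are bounds and may exceed 2-fold. So are those of Tnfrsf10b, Tnfrsf11a, Tnfrsf11b and Tnfrsf17 in tumour cells. The following genes were picked after their values were seen. Traf4, an adaptor with roles in development and cell polarity, had 373 in p65-/- and 220 in p65+/+ pre-injection cells, and 319 and 171 in p65-/- and p65+/+ tumour cells. It was 1.70-fold and 1.87-fold higher, so both p65-/- arrays were above both p65+/+ arrays, and scaling to the 75th percentile and quantile normalization put it past 2-fold before injection. Substituting the p65-/- tumour array gave a log2 difference of 0.53 in place of 0.76. Its second, dimmer probe set had 102 in p65-/- and 58.1 in p65+/+ pre-injection cells, and 82.3 and 54.3 in p65-/- and p65+/+ tumour cells. Traf5 had 135 in p65-/- and 164 in p65+/+ pre-injection cells, and 116 and 146 in p65-/- and p65+/+ tumour cells. Its other probe set, of a kind that can cross-hybridize, had the opposite order, with 182 and 158 before injection and 200 and 159 in p65-/- and p65+/+ tumour cells. Traf6 and Traf7 were 1.04-fold to 1.38-fold apart in the 4 comparisons. Tnfrsf12a, the receptor of the cytokine TWEAK, had 5458 in p65-/- and 4008 in p65+/+ pre-injection cells, and 3782 and 4545 in p65-/- and p65+/+ tumour cells. Its genotype difference thus had opposite signs in the 2 states, 0.45 and -0.27 in log2, and its second probe set gave 0.47 and -0.25. The first of these signs rests on the p65-/- pre-injection array, and the substituted array gave -0.08. Tnfrsf4, the OX40 receptor gene, had 260 to 289 on the 4 arrays, and Tnfrsf21, a death-domain receptor gene, had 262 to 323.

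**Figure D2:**
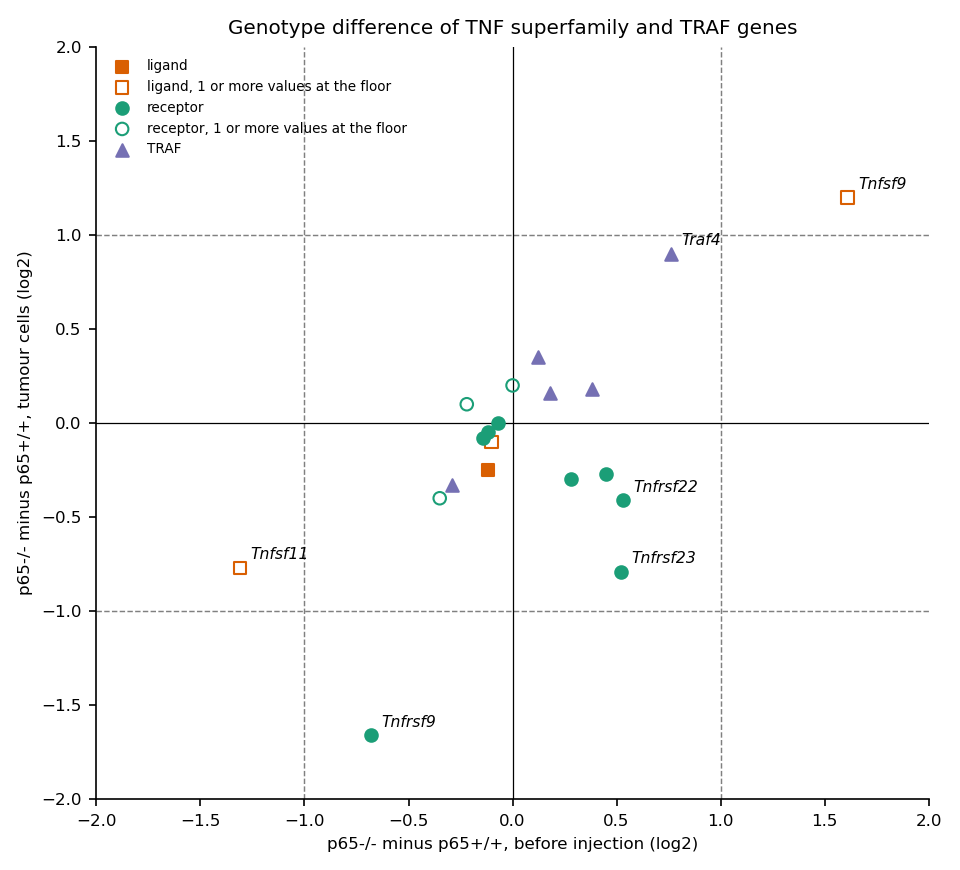
Log2 difference of p65-/- minus p65+/+ cells before injection (x axis) and in tumour cells (y axis) for the 20 genes compared in both states, 1 point a gene, with 2-fold as dashed lines. Open symbols have at least 1 value at the floor. Tnfsf9 is the point past 2-fold on both axes, Tnfrsf9 lies lowest, and 15 of the 20 genes are within 1.5-fold on both axes.

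The genotype differences in the 2 states share no array. Of 20 genes compared in both on the deposited scale, 6 were higher in p65-/- cells in both states, 9 were lower in both and 5 had opposite signs. The same sign was thus found for 75% of the family and for 67.6% of all 11756 genes compared in both. Within 1.5-fold in both states were 15 of the 20, or 75%, and 56.7% of all genes. Raising a value to the floor makes a difference smaller, and Tnfrsf11a, Tnfrsf11b, Tnfrsf17 and Tnfsf8 among the 15 had such values. Among ligands 2 of 5 compared before injection passed 2-fold, Tnfsf9 higher and Tnfsf11 lower, among receptors 0 of 14 and among TRAFs 0 of 5. These counts depend on the probe set used. A dimmer Tnfrsf9 probe set was at least 3.10-fold lower before injection, and the dimmer one of Tnfsf11, at least 1.63-fold lower, was not counted. Over all genes compared before injection, 2.11% were higher and 18.1% lower. Several of those receptors had a value under the floor and could not show their full fold.

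The tumour change asked how cells taken from a tumour differed from the cells that were injected. In p65+/+ cells, 21 genes of the family were compared, and 0 were higher and 0 lower by 2-fold, where 0.991% of all 11706 genes compared were higher and 0.777% lower. By probe set it was 0 of 32 in each direction (0.958% and 0.745% of all). The differences ran between -0.41 for Tnfsf9, a bound, and 0.60 for Tnfrsf9 in log2. In p65-/- cells, 22 genes were compared, with 0 higher and 2 lower, Tnfrsf22 and Tnfrsf23, where 13.9% of all 12444 genes compared were higher and 1.50% lower, or 9.75% and 3.54% after quantile normalization. That normalization and scaling to the 75th percentile each also counted Tnfsf9 as lower, at -1.19 and -1.11 in log2, where the deposited signals gave -0.82. By probe set, 0 of 32 were higher and 2 lower (13.7% and 1.22% of all). Both counts use the p65-/- pre-injection array, where these genes were highest, and the p65-/- tumour array, where they were lowest.

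Tnfrsf22 and Tnfrsf23 lie near each other, at chr7:143634808-143649675 and chr7:143665807-143686436, and encode decoy receptors that bind TRAIL without a signalling domain in the mouse. Tnfrsf23 had 107 in p65-/- tumour and 253 in p65-/- pre-injection cells, 2.36-fold lower in tumour cells, against 185 and 176 in p65+/+ tumour and pre-injection cells. Tnfrsf22 had 202 in p65-/- tumour and 409 in p65-/- pre-injection cells, 2.02-fold lower, against 268 and 284 in p65+/+ tumour and pre-injection cells. For both genes the p65-/- pre-injection array was the highest of the 4 and the p65-/- tumour array the lowest. A second Tnfrsf22 probe set was 1.70-fold lower in p65-/- tumour cells, with 117 against 198. The third had 200 in p65-/- tumour and 214 in p65-/- pre-injection cells, only 1.07-fold lower, and in tumour cells it was 2.14-fold higher in p65-/- than in p65+/+ cells, at 200 against 93.3, where the brightest was 1.33-fold lower. The genes are close relatives, and a probe set annotated to both, outside the 61, had 256 in p65-/- tumour and 663 in p65-/- pre-injection cells, against 377 and 418 in p65+/+ tumour and pre-injection cells. How the signal divides between the genes is uncertain.

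**Figure D3:**
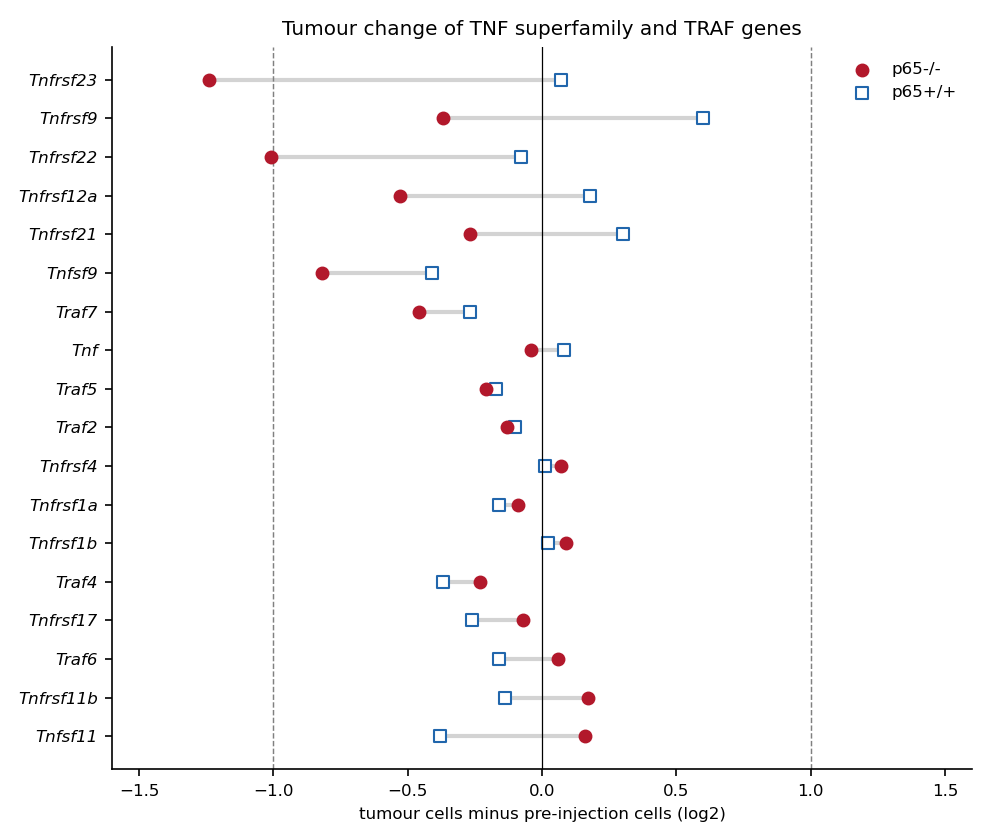
Log2 difference of tumour minus pre-injection cells for the 18 genes compared in both genotypes, with p65-/- as red circles and p65+/+ as blue squares, 2-fold as dashed lines, and genes ordered by the gap between genotypes. Tnfrsf11b, Tnfrsf17, Tnfsf9 and Tnfsf11 have at least 1 value at the floor. Tnfrsf23, Tnfrsf9 and Tnfrsf22 show the 3 widest gaps, with p65-/- on the left.

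Of 18 genes compared in both genotypes, 2 were higher in tumour cells of both genotypes, 8 lower in both and 8 had opposite signs. The same sign was found for 55.6% of the family and 49.8% of all 11321 genes compared in both, which is near the background. Subtracting the p65+/+ tumour change from that of p65-/- cells gave -1.31 in log2 for Tnfrsf23, -0.97 for Tnfrsf9, -0.93 for Tnfrsf22 and -0.71 for Tnfrsf12a. Tnfrsf9 was 1.29-fold lower in p65-/- tumour cells and 1.52-fold higher in p65+/+ tumour cells than before injection. Tnfrsf12a was 1.44-fold lower and 1.13-fold higher. The standard deviation among probe sets of 1 gene, over all genes with several, was 0.40 for the p65-/- tumour change and 0.19 for the p65+/+ one, and 0.48 and 0.32 for the genotype difference before injection and in tumour cells.

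Genes that act with the family were taken from 6 lists, 64 genes with a probe set of their own. Of 56 compared before injection, 0 were higher and 19 lower in p65-/- cells, beside 2.11% and 18.1% of all genes. Quantile normalization gave 7.12% and 12.4% of all genes, and the partner counts were not recomputed with it. Of 55 compared in tumour cells, 2 were higher and 6 lower, beside 2.74% and 5.62% of all genes. With the p65-/- tumour array substituted before injection, 1 of 55 was higher and 6 were lower, 5 of them among the 19. The shares over all genes were then 1.89% higher and 3.91% lower. Most of the partner differences given for pre-injection cells thus rest on 1 array. Superfamily genes with other symbols had 0 of 6 past 2-fold before injection and 1 of 6 higher in tumour cells. That gene was Eda2r, an ectodysplasin receptor gene and known p53 target, with 108 in p65-/- and 35 in p65+/+ pre-injection cells, and 282 and 38.8 in p65-/- and p65+/+ tumour cells, at least 3.05-fold higher. Death receptor adaptors and caspases had 1 of 9 lower before injection, the executioner caspase gene Casp6 at 2.05-fold, and 0 of 9 past 2-fold in tumour cells.

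TRAF-binding proteins and ligases had 8 of 18 lower before injection and 3 of 18 lower in tumour cells, beside 18.1% and 5.62% of all genes. In neither state was any higher, beside 2.11% and 2.74% of all genes. The apoptosis inhibitor gene Xiap had 109 in p65-/- and 995 in p65+/+ pre-injection cells, 9.14-fold lower, but 532 and 738 in p65-/- and p65+/+ tumour cells. Tax1bp1, an adaptor gene of the A20 deubiquitinase, had 212 in p65-/- and 876 in p65+/+ pre-injection cells, but 747 and 857 in p65-/- and p65+/+ tumour cells. Tab2, a subunit gene of the TAK1 kinase complex, had 341 in p65-/- and 1059 in p65+/+ pre-injection cells, but 1043 and 1058 in p65-/- and p65+/+ tumour cells. The TRAF-bound ligase gene Birc3, a known NF-kB target, was lower in both states, at least 4.41-fold before injection and 2.53-fold in tumour cells.

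Kinases of the IKK, JNK and p38 branches had 3 of 8 lower before injection and 0 of 8 past 2-fold in tumour cells. The 3 were Map2k6 at 2.92-fold, the IKK subunit gene Ikbkg at 2.79-fold and the JNK gene Mapk8 at 2.75-fold. The background for the lists in this paragraph was 2.11% higher and 18.1% lower over all genes before injection. In tumour cells it was 2.74% and 5.62%. Feedback and noncanonical NF-kB genes had 3 of 8 lower before injection and 3 of 7 lower in tumour cells. Nfkbia, the gene of the inhibitor IkBa and a known NF-kB target, had 1112 in p65-/- and 3503 in p65+/+ pre-injection cells, and 1697 and 4195 in p65-/- and p65+/+ tumour cells, 3.15-fold and 2.47-fold lower. Nfkbie was at least 2.73-fold and at least 2.42-fold lower. Cyld, which encodes a deubiquitinase, was 3.18-fold lower before injection and 1.19-fold lower in tumour cells, and Relb was 1.53-fold and at least 2.55-fold lower. Proteases and inhibitors that act on membrane-bound ligands had 4 of 7 lower before injection and 1 of 7 higher in tumour cells. The proteases Sppl2a and Adam10 were 4.15-fold and 3.83-fold lower before injection and 1.38-fold and 1.42-fold lower in tumour cells. The TNF-converting protease gene Adam17 had 286 in p65-/- and 658 in p65+/+ pre-injection cells, and 634 and 743 in p65-/- and p65+/+ tumour cells. The higher one was Timp3, an inhibitor of that protease, with 670 in p65-/- and 250 in p65+/+ tumour cells, 2.68-fold higher, but 216 and 454 in p65-/- and p65+/+ pre-injection cells. With the substituted array, Birc3, Casp6, Map2k6, Nfkbia and Nfkbie were still counted as lower (log2 differences of -1.48, -1.08, -1.02, -1.05 and -1.37), whereas Xiap was at -0.90, Sppl2a at -0.67, Adam10 at -0.61, Mapk8 at -0.54, Tax1bp1 at -0.23, Ikbkg at -0.22, Adam17 at -0.05 and Tab2 at -0.02. Cyld and Timp3 turned in direction, to 0.03 and 0.56.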

How the data were processed

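Expression was measured on 4 arrays, 1 per group, from total RNA isolated with Trizol, of which 6 ug were labelled with biotin, per the labels' protocols. The values are linear signal intensities per probe set in the authors' deposited series matrix; their summarisation and scaling were not stated in the labels or the file. A second deposited table of the authors holds signed quotients of log2 signals, entered as a score, and served as an alternative only. Where both arrays had a signal of at least 300, 76.0% to 94.7% of its values matched the quotient of log2 signals within 0.02, and 28.4% to 44.6% of all did. Log2 differences credited to that table are conversions made here. The size of the quotient minus 1 was multiplied by the smaller of both log2 signals and given the quotient's sign. This is right only for quotients formed from the deposited signals. The scanner files were not used.

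Log2 differences were computed with Python 3.11.15, pandas 2.3.3 and numpy 2.4.6. Probe sets were named by the platform annotation of 2016, 34945 with 1 gene. A gene took its probe set with the highest mean signal, and suffixes that mark shared or cross-hybridizing probes were used only where no other existed. Named in full are genes counted in any of the 4 comparisons and 6 well known ones, with up to 4 genes a partner list by size of difference. Genes, lists and rules were chosen with earlier results of these data known. Calls were checked on simulated data only for changes larger than 2-fold in bright genes. That check does not cover calls near 2-fold or near the floor. Alternatives covered normalization, floor, probe set choice, fold and the doubted array.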

Additional observations from a re-analysis of the deposited data

Results flagged for a closer look

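The tumour change of Tnfrsf23 had opposite signs in the 2 genotypes, with a signal 2.36-fold lower in p65-/- tumour than pre-injection cells and 1.05-fold higher in p65+/+ tumour than pre-injection cells. The difference between the changes was -1.31 in log2. It was noticed because the single array pair of each genotype moved in a different direction and the changes were over 2-fold apart. The difference was not tested, since each group holds 1 array. It uses the p65-/- pre-injection array, which stood apart from the others and had the highest Tnfrsf23 signal, at 253. The p65-/- tumour array had the lowest, at 107, against 185 and 176 in p65+/+ tumour and pre-injection cells.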

How the results depend on the processing

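No paired analysis was possible because each group holds 1 array. For p65-/- against p65+/+ pre-injection cells, where 1 gene was higher and 1 lower, 2 were higher after quantile normalization and 2 after scaling to the 75th percentile (Tnfsf9 and Traf4), and 0 were lower after the latter scaling. With the p65-/- tumour array instead, 0 were higher and 2 lower (Tnfrsf9 and Tnfsf11) of 22 compared, beside 1.89% and 3.91% of all genes. Of the partner genes 1 was higher (Eda2r) and 6 lower, where 0 and 19 were counted. Cyld at 0.03 and Timp3 at 0.56 in log2 turned in direction. With the floor at the 70th percentile the counts were 0 higher and 0 lower before injection, beside 1.72% and 20.6% of all genes. In tumour cells 0 were higher, where 1 was counted, beside 2.35% of all genes. The p65-/- tumour change had 1 lower, where 2 were counted, beside 1.17%. This floor leaves 11 to 13 genes to compare. On the log2(signal + 50) scale, 2 were lower before injection (Fas and Tnfsf11), beside 11.6% of all genes. On that scale the p65-/- tumour change had 1 higher (Tnfsf11) and 0 lower, beside 8.32% and 0.792%. Averaging the probe sets of each gene left 1 lower for that change, beside 1.22%. At a 3-fold threshold 0 were lower before injection (8.8% of all genes), 0 higher in tumour cells (1.02%) and 0 lower for the p65-/- tumour change (0.498%). The authors' deposited table gave 3 higher (Tnf, Tnfsf9 and Traf4) and 1 lower (Tnfrsf9) of 16 compared before injection, beside 11.7% and 22% of all genes. In tumour cells 2 of 14 were higher (Tnfrsf21 and Traf4), beside 9.08%. The p65+/+ tumour change had 1 higher (Tnf) and 1 lower (Tnfrsf21) of 17, beside 5.64% and 5.74%. The p65-/- tumour change had 1 higher (Tnfrsf21) and 4 lower (Tnfrsf22, Tnfrsf23, Tnfrsf9 and Tnfsf9) of 15, beside 19.7% and 9.83%. For Tnf in p65+/+ cells its quotient of 3.54 converts to 17.04 in log2, between arrays whose signals differ by 0.08. The cause was not tested. Median scaling left all 8 counts of the family as they were. So did the brightest probe set of any suffix, but in the family it changes the probe set of Tnfrsf10b and Traf5 only. The genes that were counted kept theirs, so their calls could not change. With the p65+/+ pre-injection array in place of the p65-/- one, the p65-/- tumour change had 0 higher and 2 lower (Tnfrsf9 and Tnfsf11), beside 1.89% and 3.91% of all genes. Tnfrsf22 was then at -0.49 and Tnfrsf23 at -0.72 in log2. Of the single log2 differences under an alternative, 274 moved by less than the standard deviation among probe sets of 1 gene, 42 by more, and 2 that had passed 2-fold turned in direction. The 274 include values that an alternative could not change, as in averaging for genes with 1 probe set. Signals near the array median limit what can be said of Tnf, Fas, Tnfsf11, Tnfrsf11a and Tnfrsf11b.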
